A study of Mus musculus with 15 samples.

Results

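Mitochondrial ribosomal protein genes were taken as those whose symbol begins with Mrpl or Mrps followed by a number, each taken from the brightest probe set annotated with a single symbol. This gave 77 genes of 19296 tested, 48 named Mrpl and 29 named Mrps. All 77 are protein-coding genes in the RefSeq mouse gene table, and they lie on 17 chromosomes. Assigned to subunits by textbook knowledge, 50 encode proteins of the large subunit, Mrps30 and Mrps18a among them despite their symbols, and 26 encode proteins of the small subunit. Mrps36 belongs to neither, since its product is now known as a subunit of the 2-oxoglutarate dehydrogenase complex of the citric acid cycle. Bacterial homologues were assigned to 31 of the large subunit proteins and 16 of the small subunit proteins, while 19 and 10 were taken as specific to mitochondria. Mrps18a was placed with the former and its paralogue Mrps18b with the latter, so counts by class depend on such choices.

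Their products are encoded in the nucleus, made in the cytosol and imported, and they assemble with RNA made from mitochondrial DNA into the ribosome that translates inside the organelle. That ribosome makes only core subunits of the respiratory chain and ATP synthase, so its proteins are needed for oxidative phosphorylation. It has a small subunit, which reads the messenger RNA, and a large subunit, which joins the amino acids, and both hold proteins with bacterial homologues beside proteins found only in mitochondria. Haematopoietic stem cells (HSC) are known for resting for long periods and for relying little on oxidative phosphorylation, whereas granulocyte/macrophage progenitors (GMP), which give rise to granulocytes and macrophages, divide fast.

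The study profiled HSC and GMP sorted from bone marrow of old and young C57Bl/6 mice on 15 Affymetrix arrays. Old mice, aged 22 to 30 months, gave 3 HSC arrays and 3 GMP arrays, and young mice, aged 6 to 12 weeks, gave 5 HSC arrays and 4 GMP arrays. All mice were labelled male C57Bl/6, and no genotype or treatment set the groups apart. HSC were gated as Lin-/cKit+/Sca1+/Flk2-/CD48-/CD150+ and GMP as Lin-/cKit+/Sca1-/FcγR+/CD34+, both sorted in 2 passes, and the small amounts of RNA were amplified with a NuGEN whole-transcript kit. Whether an array held RNA of 1 mouse or of several is not stated, so the tests measure the spread between arrays, and the number of arrays limits their precision. All levels are log2 expression values, so a difference of 1 is a doubling.

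The sorted cells carried their defining markers. All 8 measured HSC markers were higher in HSC than in GMP at both ages, and of 10 GMP markers 9 were lower in old HSC than in old GMP and 10 were lower in young HSC than in young GMP. The mean of the GMP markers lay between 6.78 and 6.94 in old HSC and between 6.75 and 6.92 in young HSC. None of the HSC or GMP markers was called as changed with age in HSC. Among 36 markers of 7 other blood cell types, 2 fell and 2 rose with age in HSC, where 9.22% of all genes fell and 2.25% rose. Some arrays went against their label. Xist, the RNA of the inactive X chromosome, lay between 5.46 and 5.84 on the 6 old arrays but was more than 1 log2 unit above the highest of them on 7 of the 9 young arrays, all but replicate 1 of young HSC and of young GMP. Y-linked genes averaged 4.94 and 5.20 on the arrays numbered 4 of young HSC and young GMP, against at least 7.12 on every other array. High Xist was thus found on young arrays alone, so old against young comparisons that use these arrays cannot tell age from this sex-linked signal. The spread of an array, the interquartile range of all its probe sets, also differed between the groups, at 1.96 to 2.33 log2 in old HSC, 2.21 to 2.69 in young HSC, 2.27 to 2.48 in old GMP and 2.13 to 2.60 in young GMP. Counts for the comparisons that use the young arrays are given below with all arrays, without both arrays numbered 4 and with only the young arrays that lack high Xist.

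The genes were bright and varied together. Of the 77, 76 had a mean level above the median of all genes, 7.32, and the dimmest averaged 6.93. The median of the 77 genes was 8.61, 8.47 and 8.76 on the 3 old HSC arrays, against 9.08, 9.27, 9.32, 8.65 and 9.27 on the 5 young HSC arrays. It was 9.14, 9.12 and 9.39 on the 3 old GMP arrays and 9.60, 9.52, 9.39 and 9.17 on the 4 young GMP arrays. Old HSC thus held the lowest arrays, but young HSC replicate 4 lay inside the range of old HSC, and young GMP replicates 3 and 4 lay inside that of old GMP. For HSC these medians averaged 8.61 ± 0.14 over the old arrays (SD, n = 3) and 9.12 ± 0.28 over the young arrays (n = 5). For GMP they averaged 9.22 ± 0.15 over the old arrays (n = 3) and 9.42 ± 0.19 over the young arrays (n = 4).

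**Figure D1:**
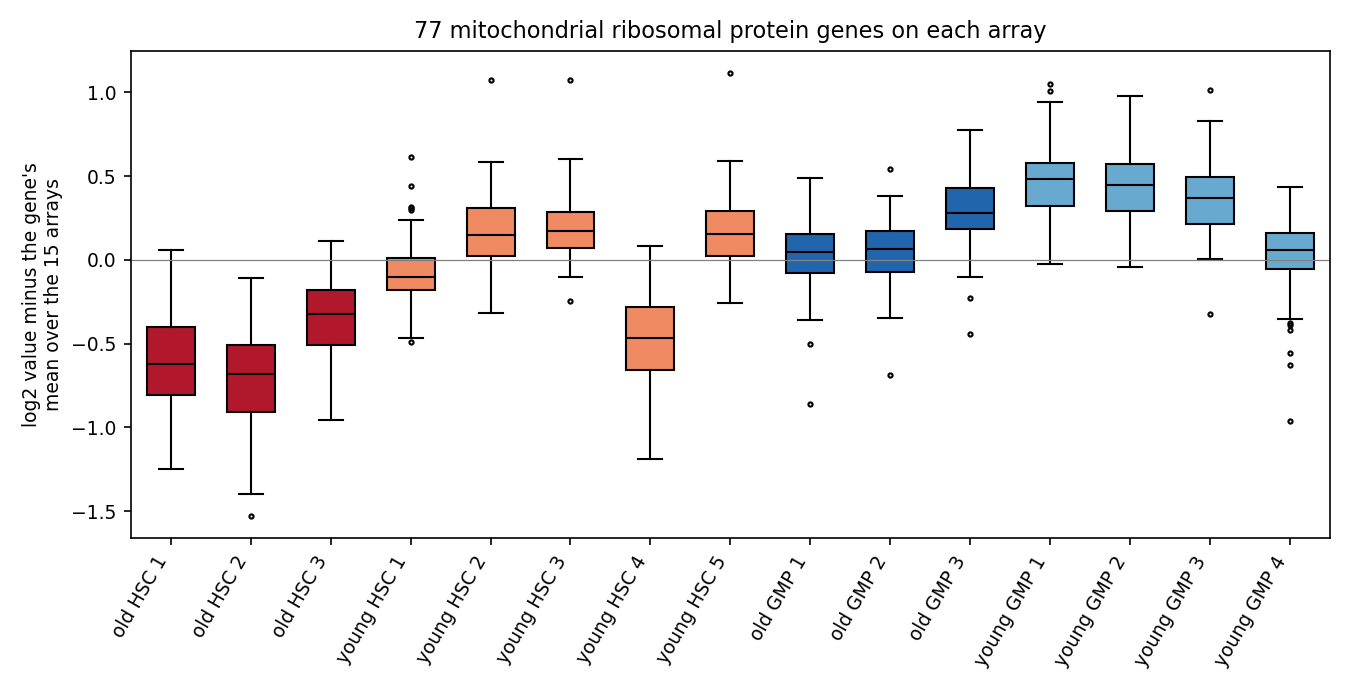
Each box shows the 77 genes on 1 array as log2 value minus the gene's mean over the 15 arrays, with the median as a line, the quartiles as the box and whiskers to the furthest gene within 1.5 box lengths. Old HSC replicates 1 and 2 lie lowest, with medians of -0.62 and -0.68, and old HSC replicate 3 lies at -0.32. Young HSC replicate 4, at -0.46, lies among the old HSC arrays rather than with the other young HSC arrays.

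Gene by gene the order was nearly the same. Old HSC had the lowest mean of the 4 groups in 76 of the 77 genes, and young GMP had the highest in 64. In 48 genes the means ran, from low to high, old HSC, young HSC, old GMP and young GMP. The exception at the low end was Mrpl52, a large subunit protein specific to mitochondria, whose lowest mean was in old GMP.

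Over the 15 arrays each gene was set against the median of the other 76. The correlation had a median of 0.900, 67 genes were above 0.8, and the highest was Mrps12 at 0.973. The same correlation after subtracting each group's mean had a median of 0.851, so the genes moved together between arrays of 1 group as well. These points share arrays and their spread, and are given as a description. The correlation was not computed for other genes of like brightness, so it is not shown to be particular to these genes. Mrpl52 stood lowest over all arrays, at 0.127, yet followed the others within groups, at 0.936. Mrpl10, a protein of the stalk where translation factors dock, showed the opposite, with 0.576 over all arrays and 0.014 within groups, and Mrps27, a small subunit protein, had 0.657 and 0.179.

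**Figure D2:**
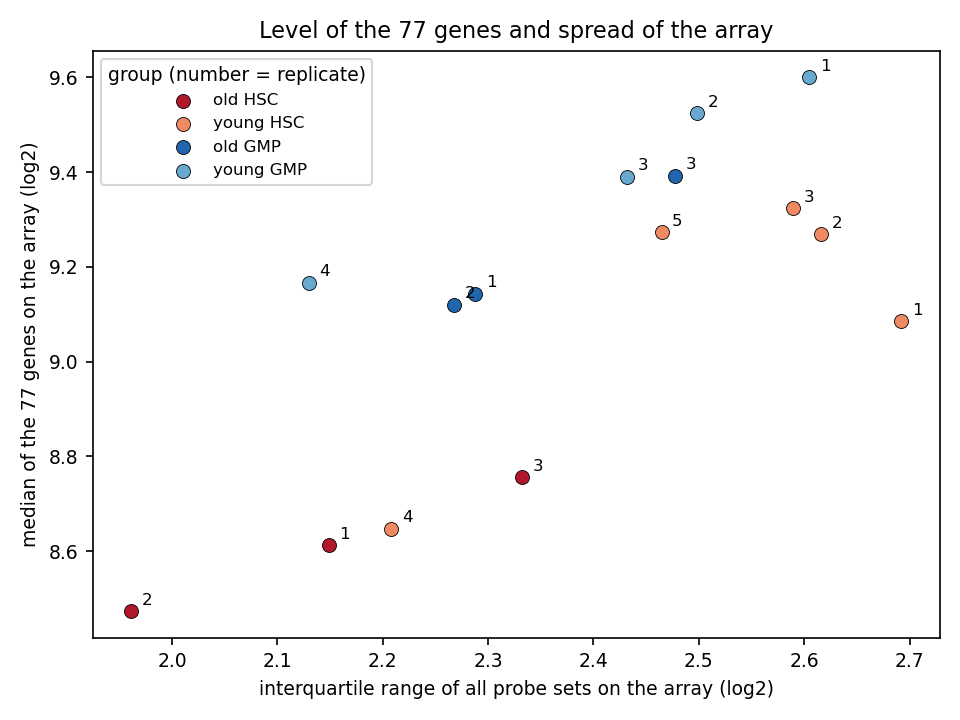
Each point is 1 array, with the interquartile range of all its probe sets on the horizontal axis (log2) and the median of the 77 genes on the vertical axis (log2), coloured by group and numbered by replicate. Old HSC replicate 2 has both the lowest spread, 1.96, and the lowest median, 8.47, and the replicate 4 arrays have the lowest spread of their groups.

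The first comparison set old HSC against young HSC. Genes for mitochondrial ribosomal proteins were lower in old HSC: 37 of the 77 fell and 0 rose at an adjusted p under 0.05, where 9.22% of all genes fell and 2.25% rose. After quantile normalization 20 of the 77 and 4.03% of all genes fell. The difference was negative for all 77, for 72 of them after quantile normalization and for 58 with each array's interquartile range as a covariate. Its median over the 77 was -0.54 log2, against 0.03 over all genes, and single genes ran from -1.20 to -0.04. Of 2502 other genes whose mean level lay between the quartiles of the 77, 8.63 and 9.69, 24.0% fell, with a median of -0.30. Of all calls in this comparison 80.4% were decreases, and 59.4% after quantile normalization.

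Genes of both subunits fell, in a comparison where 9.22% of all genes and 24.0% of the 2502 other genes of like brightness fell. In the large subunit 23 of 50 genes fell, with a median of -0.54, and in the small subunit 14 of 26, with a median of -0.55. Among proteins with a bacterial homologue 21 of 47 fell, with a median of -0.53, and among those specific to mitochondria 16 of 29, with a median of -0.56. Differences between these classes were not tested.

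Large subunit genes held the decreases that depended least on single arrays. Mrps30, a large subunit protein specific to mitochondria, had levels of 7.41, 7.22 and 7.61 in old HSC, against 8.12, 8.54, 8.32, 7.92 and 8.41 in young HSC. No old HSC array reached a young one, and the gene fell by 0.85 ± 0.14 log2 (SE), or 1.80-fold, with an adjusted p of 0.0022. Mrpl35, whose product is embedded in the core of the large subunit, had 7.89, 7.79 and 8.004 in old HSC, against 8.75, 8.97, 9.20, 8.14 and 8.85 in young HSC. It fell by 0.89 ± 0.17 log2 (adjusted p = 0.0050), and here too the groups were apart. Mrpl11, which lies at the base of the stalk that receives elongation factors, had 9.14, 8.95 and 8.96 in old HSC, against 9.70, 9.81, 10.12, 9.29 and 10.21 in young HSC. Its groups did not overlap either, and it fell by 0.81 ± 0.16 log2 (adjusted p = 0.0064). These 3 genes kept their call when any 1 of the 8 HSC arrays was left out, which held for no other gene of the 37.

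The size of the change was largest in Mrps21, a small subunit protein. It had 9.27, 9.23 and 9.93 in old HSC, against 10.81, 10.85, 10.87, 9.86 and 10.997 in young HSC. Young HSC replicate 4 fell below the highest old array, and the other 4 young arrays lay between 10.81 and 10.997, above all old ones. Mrps21 fell by 1.203 ± 0.25 log2, or 2.302-fold (adjusted p = 0.0080). Mrpl50, a large subunit protein specific to mitochondria, had 8.52, 8.26 and 9.01 in old HSC, against 9.30, 9.84, 9.81, 9.24 and 9.72 in young HSC. The groups were apart, with a decrease of 0.98 ± 0.20 log2 (adjusted p = 0.0067). Mrps12, a protein of the decoding centre of the small subunit, fell by 0.91 ± 0.20 log2 (adjusted p = 0.0115), with 9.39, 9.26 and 9.80 in old HSC, against 10.41, 10.56, 10.73, 9.61 and 10.65 in young HSC. As in Mrps21, only replicate 4 of the young arrays reached into the old range. Mrpl13, a large subunit protein with a bacterial homologue, had 8.75, 8.64 and 9.02 in old HSC, against 9.59, 9.84, 9.97, 9.30 and 9.84 in young HSC, and fell by 0.90 ± 0.19 log2 (adjusted p = 0.0088) with no overlap.

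Of the rest of the 12 largest decreases, Mrps28 and Mrps14 of the small subunit fell by 0.87 and 0.85 log2. In the large subunit Mrpl32, which is known to be cut by the m-AAA protease before it is assembled, fell by 0.83, Mrpl20 by 0.83 and Mrpl44, a protein with a fold like that of RNase III, by 0.82. Their adjusted p-values ran from 0.0055 (Mrps14) to 0.0231 (Mrps28). At the other end Mrpl28, a large subunit protein, had 8.43, 8.34 and 8.58 in old HSC, inside the range of 7.97 to 8.73 in young HSC. Its difference was -0.04 ± 0.14 log2 (adjusted p = 0.859), and 0.18 after quantile normalization. Mrpl12, the flexible part of the stalk, had a difference of -0.22 ± 0.13 log2 (adjusted p = 0.236), and of 0.05 after quantile normalization.

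**Figure D3:**
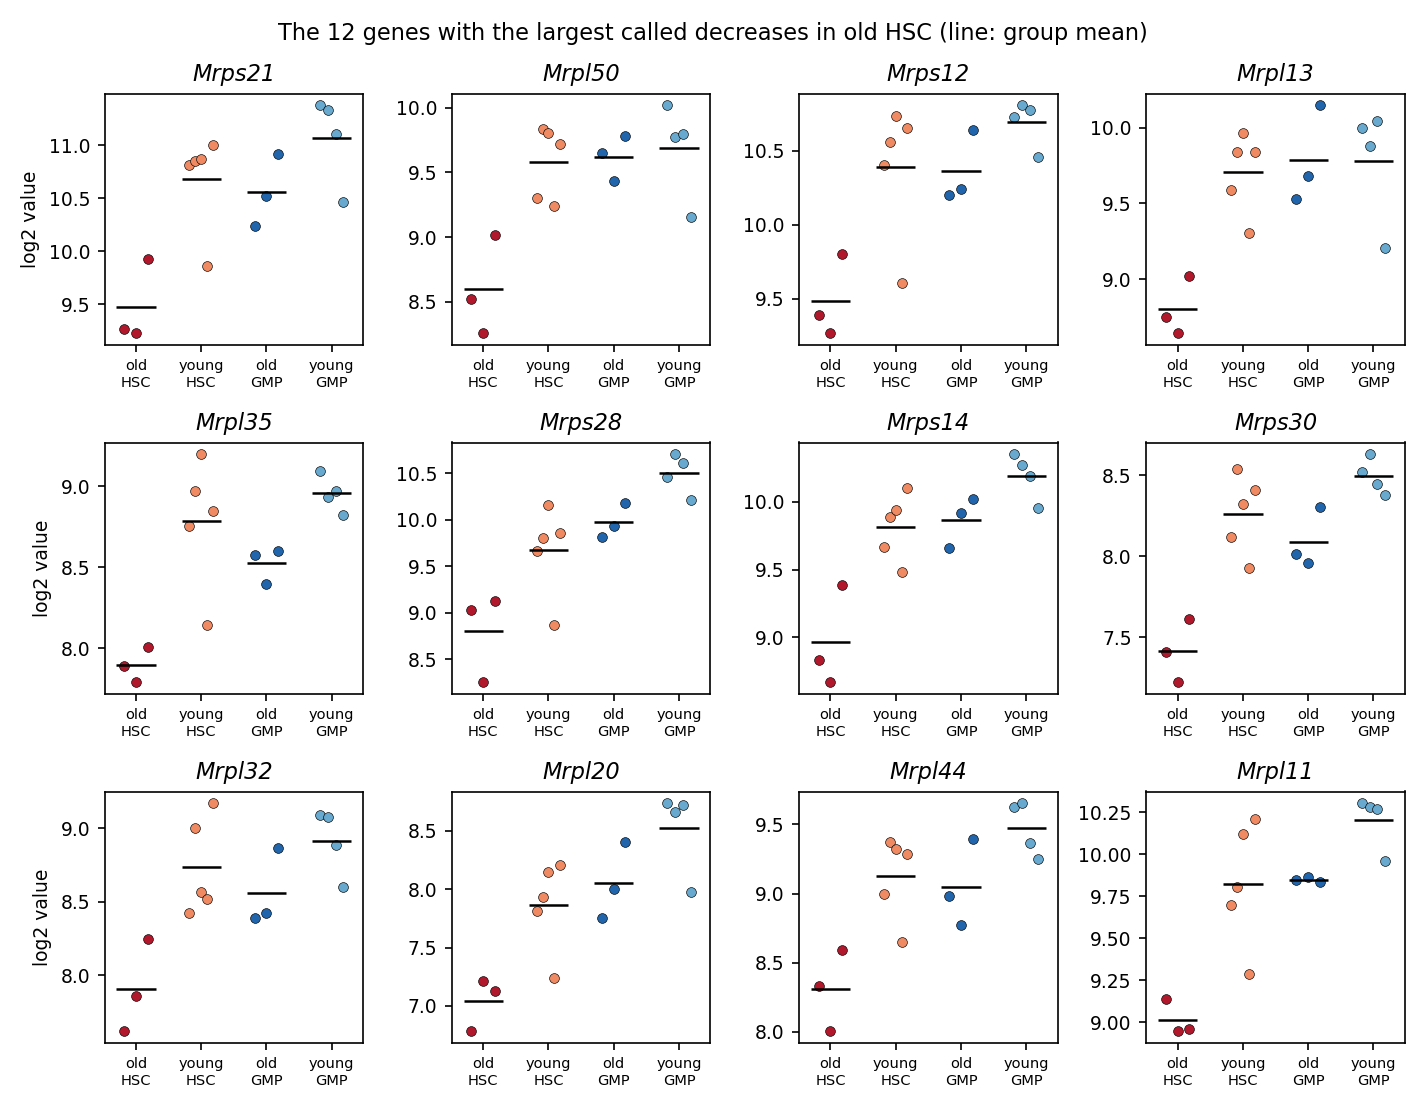
Log2 values on every array (points) and group means (lines) for the 12 genes with the largest called decreases in old HSC, in the order old HSC, young HSC, old GMP and young GMP. The old HSC points are lowest in each panel except where a single young HSC array, replicate 4, comes down to them, as in Mrps21 at 9.86.

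Vertebrates have 3 Mrps18 genes, whose products occupy different places in the ribosome. Mrps18a, in the large subunit, had 8.78, 9.09 and 9.45 in old HSC, against 9.57, 9.69, 9.91, 9.71 and 9.61 in young HSC, and fell by 0.59 ± 0.14 log2 (adjusted p = 0.0138) with no overlap. Mrps18c, the small subunit protein that corresponds to the bacterial one, had 10.82, 10.61 and 11.33 in old HSC, against 11.56, 12.03, 11.55, 10.96 and 12.11 in young HSC. It fell by 0.72 ± 0.23 log2, just within the threshold (adjusted p = 0.0495). Mrps18b, a small subunit protein specific to mitochondria, had 8.85, 7.65 and 8.58 in old HSC, against 8.78, 8.90, 9.34, 8.23 and 9.32 in young HSC, and its difference of -0.56 ± 0.26 log2 was not called (adjusted p = 0.146). Old HSC replicate 2 lay further from the other old arrays than the group means lay from each other.

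Mrps36, which is no ribosomal protein, had 8.49, 8.35 and 8.70 in old HSC, against 8.84, 8.85, 8.92, 8.29 and 8.96 in young HSC. The difference was -0.26 ± 0.21 log2 (adjusted p = 0.392). A dimmer probe set of the gene gave -0.63 ± 0.27 (adjusted p = 0.123). It is 1 of 8 genes with more than 1 probe set, and in all 8 every probe set had a negative difference. Which copy of a gene each probe set reads is not given in the sources used here.

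The call for the old HSC decrease depended on single arrays. Without old HSC replicate 2, 3 genes fell, and these were Mrps30, Mrpl35 and Mrpl11. Without old HSC replicate 1, 8 fell, and 19 fell without young HSC replicate 2 or without replicate 3. Without young HSC replicate 4, 65 fell, and without the replicate 4 arrays of both young groups 70. The share of all genes called lower moved with these counts. In the same order it was 1.44%, 1.92%, 4.02% and 4.09% for the first 4 omissions, 17.9% without young HSC replicate 4 and 19.6% without both replicate 4 arrays. When only the 2 young arrays without high Xist were kept, 1 of them HSC, 74 differences were negative. Their median was -0.46, against 0.007 over all genes. That fit had 1 young HSC array, so its calls are not compared. By position, young HSC replicate 4 was the lowest young HSC array in 69 of the 77 genes, and it was below the highest old HSC array in 53. In 22 genes all old HSC arrays lay below all young HSC arrays, a separation found in 7.69% of all genes, and in 66 they lay below the young HSC arrays other than replicate 4, a separation found in 18.8% of all genes. With the interquartile range as a covariate the median was -0.20 and 0 genes were called, with 51 lower and 54 higher among all genes. In bulk samples a smaller share of cells that express a gene cannot be told apart from less of its RNA in each cell.

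Old GMP set against young GMP gave 0 calls among the 77 genes and 0 among all genes, 0% in the limma fit. At an unadjusted p under 0.05, 18 of the 77 and 870 of all genes were below the threshold. The difference was negative for 66 of the 77 and for 57 after quantile normalization, with a median of -0.19 log2 against -0.01 over all genes, and it ran from -0.63 to 0.18. In 13 genes every old GMP array lay below every young GMP array, as in 3.72% of all genes. Without the replicate 4 arrays of both young groups 6 genes were called lower, and 0.876% of all genes. When only the young arrays without high Xist were kept, 0 of the 77 were called.

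Mrps36 had the largest difference in GMP. It had 8.62, 8.78 and 9.10 in old GMP, against 9.92, 9.73, 9.42 and 8.78 in young GMP. Young GMP replicate 4 lay within the old range and the other 3 young arrays above it, and the difference was -0.63 ± 0.22 log2 (adjusted p = 0.914). Mrpl14, a large subunit protein at the face that meets the small subunit, had 8.54, 8.63 and 8.56 in old GMP, against 9.26, 9.27, 9.23 and 8.69 in young GMP. The groups did not overlap, and the difference of -0.54 ± 0.19 log2 was not called (adjusted p = 0.931). Mrps35, a small subunit protein specific to mitochondria, differed by -0.48 ± 0.16 log2 (adjusted p = 0.900) and Mrps30 by -0.40 ± 0.15 (adjusted p = 0.949). Mrpl13 and Mrps18a, both called in HSC, had differences of 0.01 ± 0.20 and 0.05 ± 0.14 log2 in GMP.

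The age difference was more negative in HSC than in GMP for 73 of the 77 genes, and 46 with the interquartile range as a covariate. The median of the difference between both age effects was -0.36 log2, but 0 of the 77 genes passed the test of that difference, which 0.0933% of all genes passed. At an unadjusted p under 0.05, 17 of the 77 and 2165 of all genes did. The median was -0.24 over the 2502 other genes of like brightness. For the 77 it was -0.04 with the interquartile range as a covariate and -0.14 when only the 2 young arrays without high Xist were kept, and without both arrays numbered 4 it was -0.37 with 0 genes called lower. Of the 77, the genes with the smallest p for this difference were Mrpl13 at -0.91 ± 0.28 log2 (adjusted p = 0.269), Mrps18a at -0.64 ± 0.20 and Mrpl50 at -0.91 ± 0.28 (adjusted p = 0.285 for both), and Mrpl33, a large subunit protein, at -0.52 ± 0.17 (adjusted p = 0.314). An effect of age on these genes was therefore called in HSC and not in GMP, without a called difference between the cell types. Over the 77 genes the age differences in HSC and in GMP had a Pearson correlation of 0.405 and a Spearman correlation of 0.418, given as a description of genes that share arrays.

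**Figure D4:**
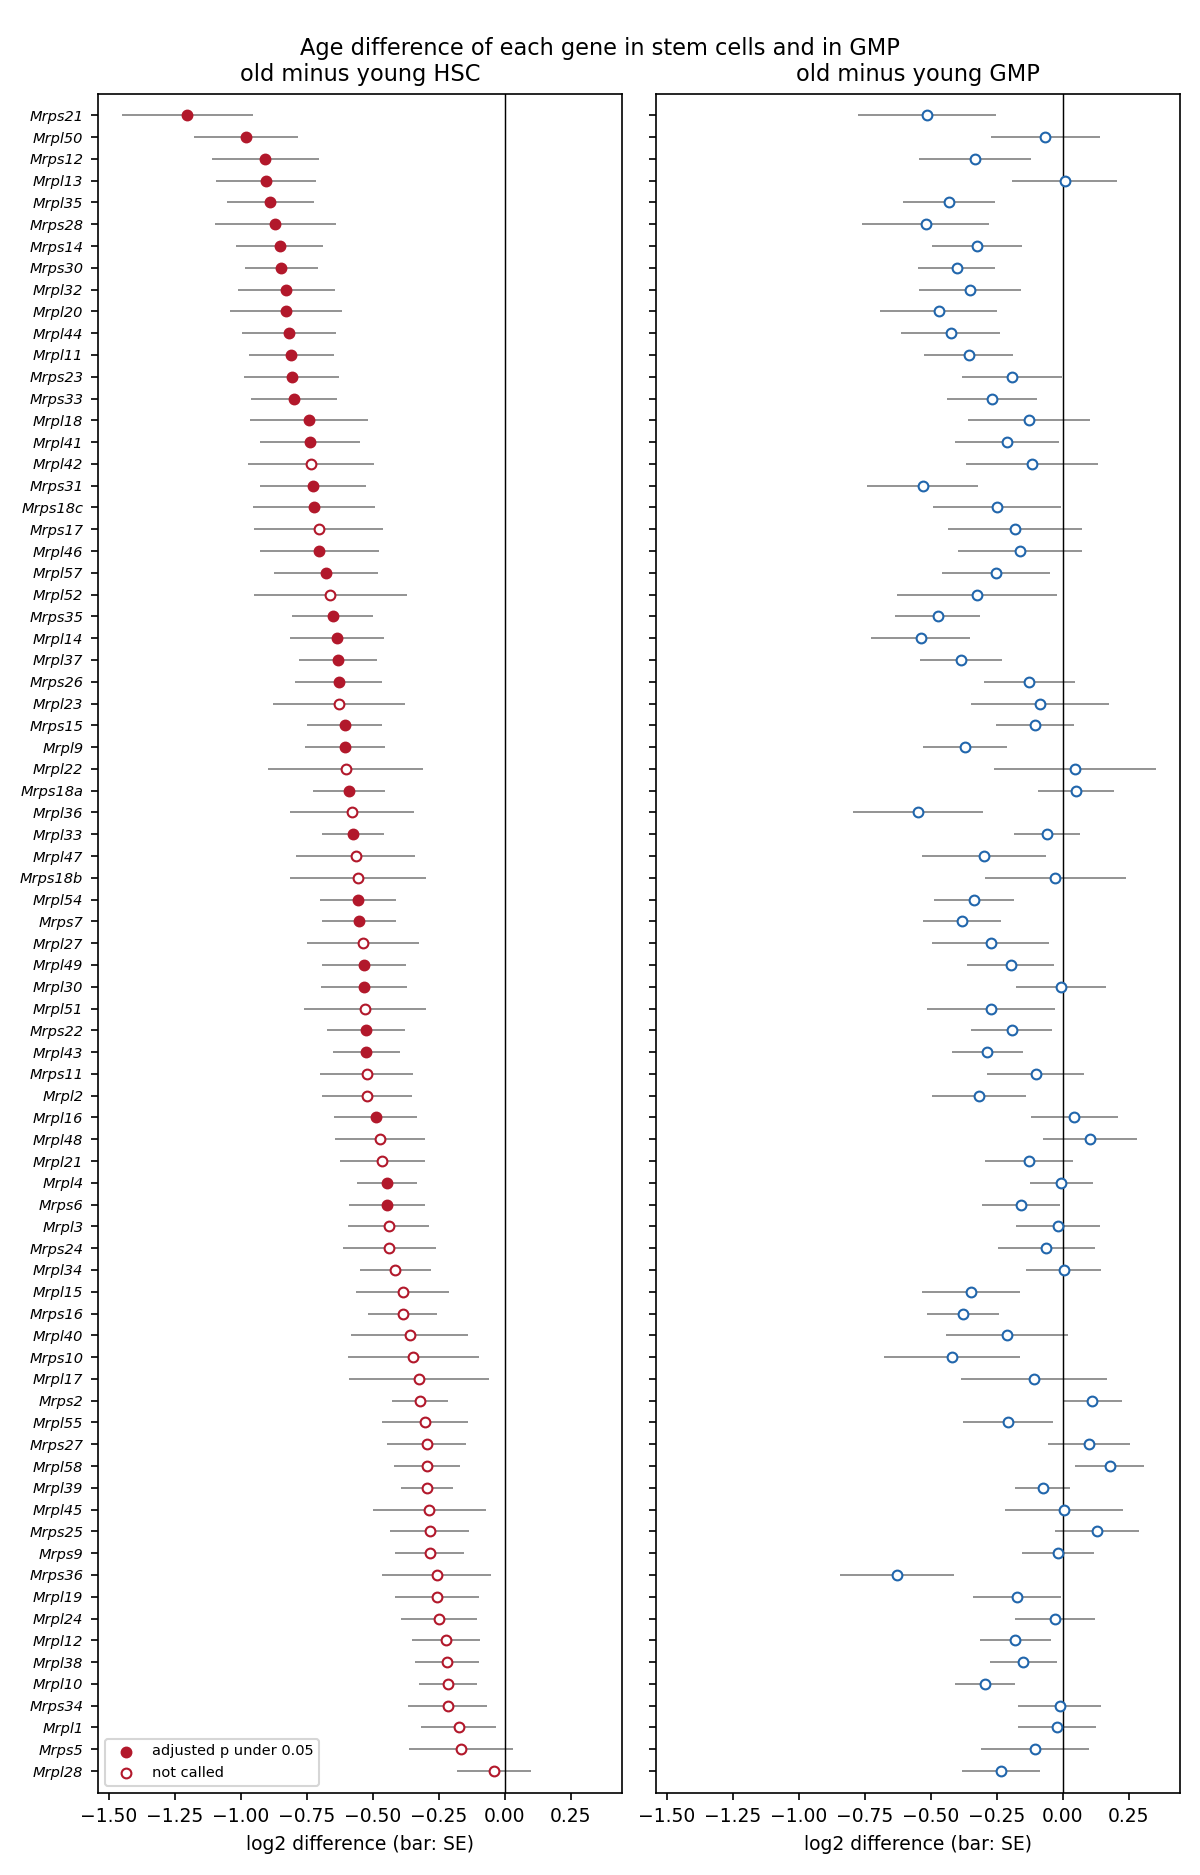
Old minus young difference of each of the 77 genes (log2, bars show 1 SE) in HSC on the left and in GMP on the right, with filled points for an adjusted p under 0.05. All HSC points lie left of 0 and 37 are filled, while the GMP points run from -0.63 to 0.18 and none is filled.

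The next comparisons set HSC against GMP at each age. In old mice 53 of the 77 genes were lower in HSC and 0 were higher, where 13% of all genes were lower and 9.25% higher. The difference was negative for 76 genes (73 after quantile normalization), with a median of -0.66 log2 against 0.02 over all genes. Of the 2502 other genes of like brightness 31.0% were lower in old HSC, with a median of -0.21. Every old HSC array lay below every old GMP array in 64 genes, as in 18.4% of all genes. By subunit, 35 of 50 large subunit genes and 18 of 26 small subunit genes were lower. Without old GMP replicate 3, the highest old GMP array in 70 of the 77 genes, 35 were lower, and 9.53% of all genes.

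In young mice 24 of the 77 genes were lower in HSC and 1 was higher, where 10.9% of all genes were lower and 13.6% higher. The difference was negative for 74 genes (72 after quantile normalization), with a median of -0.32 log2 against -0.05 over all genes. Of the 2502 other genes of like brightness 19.3% were lower in young HSC, with a median of -0.01. With the replicate numbers as a block 39 were lower, and 14.2% of all genes, although the labels name no pairing of the young arrays. That block ran over all 15 arrays, so it also tied old arrays to young arrays of the same number. A fit on the young pairs alone was not run, and the count of 24 came from a fit without a block. In 9 genes every young HSC array lay below every young GMP array, as in 9.51% of all genes. Without young GMP replicate 1, 2 or 3, 11, 10 or 14 genes were lower, with 8.38% to 9.05% of all genes. With the interquartile range as a covariate 52 of the 77 and 14.6% of all genes were lower in young HSC, and 44 of the 77 and 12.2% of all genes in old HSC. Without both arrays numbered 4, 29 of the 77 and 12.01% of all genes were lower in young HSC, and when only the young arrays without high Xist were kept, 8 and 3.45%. In both ages 20 genes were called lower in HSC, which is 37.7% of the old list and 83.3% of the young list.

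Mrpl18, a large subunit protein that in human cells also takes part in carrying ribosomal RNA into mitochondria, had the largest difference in old mice. Its levels were 9.39, 9.17 and 9.33 in old HSC, against 10.77, 10.82 and 10.83 in old GMP, a decrease of 1.51 ± 0.25 log2, or 2.85-fold (adjusted p = 1.3e-04). In young mice it had 9.94, 10.36, 10.33, 9.09 and 10.47 in HSC, against 11.08, 11.09, 10.996 and 10.58 in GMP, a decrease of 0.90 ± 0.20 log2 (adjusted p = 0.0023). HSC and GMP were apart at both ages. Mrpl41, a large subunit protein specific to mitochondria, was lower by 1.30 ± 0.21 log2 in old HSC (adjusted p = 1.1e-04) and by 0.78 ± 0.17 log2 in young HSC (adjusted p = 0.0020). A dimmer probe set of Mrpl41 gave smaller differences, -0.73 ± 0.18 log2 in old mice (adjusted p = 0.0067) and -0.59 ± 0.15 in young mice (adjusted p = 0.0061). Mrps23, Mrps28 and Mrps21, all of the small subunit, were lower in old HSC than in old GMP by 1.18, 1.18 and 1.08 log2.

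Mrpl36, among the smallest proteins of the large subunit, had the largest decrease in young mice. It had 7.84, 8.27, 8.46, 7.31 and 8.33 in young HSC, against 9.35, 9.28, 9.32 and 8.40 in young GMP. Both replicate 4 arrays were the lowest of their group, and the difference was -1.05 ± 0.22 log2 (adjusted p = 0.0010), close to the -1.08 ± 0.26 in old mice (adjusted p = 0.0050). Other large subunit genes lower in young HSC were Mrpl47 by 0.81, Mrpl51 by 0.70, Mrpl19 by 0.67 and Mrpl20 by 0.66 log2. A dimmer probe set of Mrpl47 gave -0.31 ± 0.13 log2, which was not called (adjusted p = 0.102), and a dimmer one of Mrpl51 gave -0.71 ± 0.21 (adjusted p = 0.0168). Of the small subunit, Mrps28 was lower by 0.83 and Mrps10 by 0.64 log2, and Mrps36 was lower by 0.69 log2. Mrps36 had a difference of -0.32 ± 0.23 log2 in old mice, which was not called (adjusted p = 0.409). Mrpl12 was lower in HSC at both ages, by 0.55 ± 0.14 log2 in old mice and 0.51 ± 0.12 in young mice, although its age difference was not called.

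Mrpl52 ran the other way. It had 9.12, 9.58, 9.58, 7.96 and 9.62 in young HSC, against 8.48, 8.47, 8.19 and 7.55 in young GMP, and rose by 1.00 ± 0.27 log2, or 2.00-fold (adjusted p = 0.0081). All young HSC arrays but replicate 4 lay above all young GMP arrays. In old mice it had 8.57, 8.38 and 8.59 in HSC, against 7.65, 7.82 and 8.06 in GMP. The groups were apart, and the difference of 0.67 ± 0.32 log2 was not called (adjusted p = 0.172). Its age difference in HSC, -0.66 ± 0.29 log2 (adjusted p = 0.130), had the sign of the other 76 genes, but was 0.10 with the interquartile range as a covariate.

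**Figure D5:**
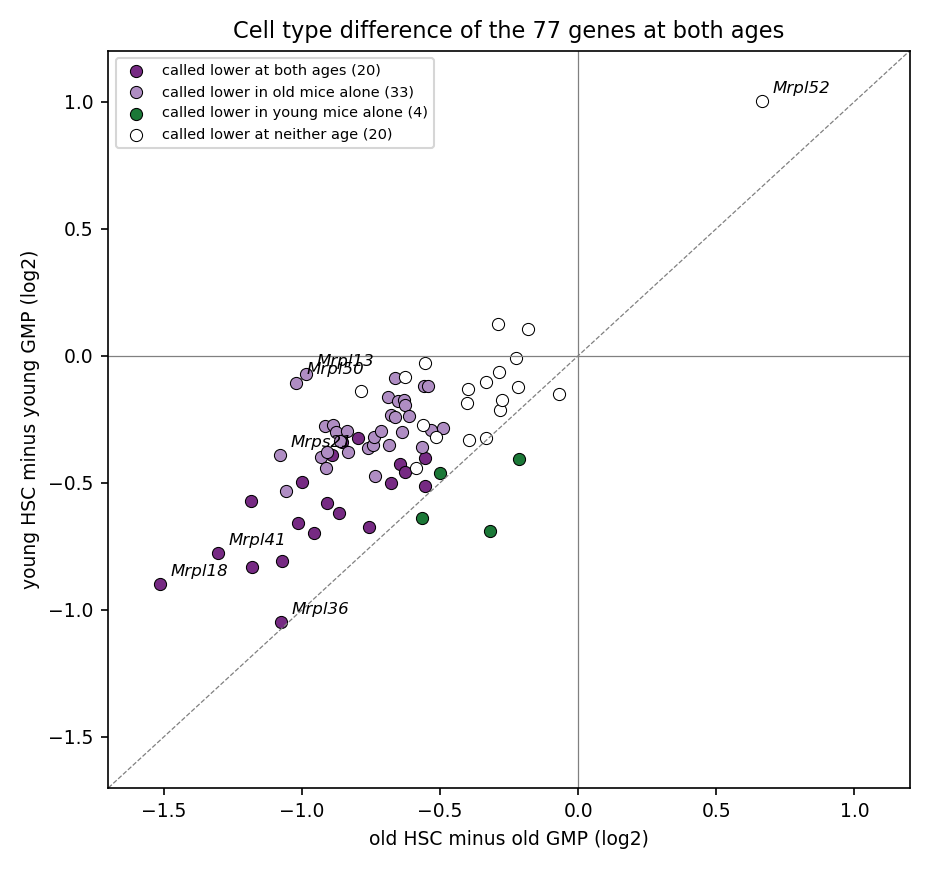
HSC minus GMP difference of each of the 77 genes in old mice (horizontal axis, log2) and in young mice (vertical axis, log2), coloured by the call at each age. Most points lie below and left of 0 and above the dotted line of equal differences, Mrpl18 lies furthest left at -1.51, and Mrpl52 alone is positive in both.

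Genes that work with the mitochondrial ribosome were counted from lists drawn up by hand, where 9.22% of all genes fell in old HSC. Among 5 measured subunits with other names 2 fell in old HSC, Chchd1 of the small subunit by 0.75 ± 0.17 log2 and Gadd45gip1 of the large subunit by 0.53 ± 0.15. Chchd1 had 8.94, 8.69 and 9.12 in old HSC, against 9.51, 9.82, 9.86, 9.23 and 9.92 in young HSC, with no overlap. Among 16 translation factors and messenger RNA handling genes 6 (37.5%) fell and 0 rose, with a median of -0.29 log2. Tufm, the elongation factor that brings transfer RNA to the ribosome, had 7.71, 7.72 and 7.96 in old HSC, against 8.53, 8.92, 8.88, 8.13 and 8.72 in young HSC, and fell by 0.84 ± 0.18 log2 (adjusted p = 0.0106). Slirp, a stabiliser of mitochondrial messenger RNA, fell by 0.85 ± 0.24 log2 (adjusted p = 0.0307) although its highest old array, 10.26, lay above the lowest young one, 9.62. Gfm1, the translocation factor, fell by 0.68 and Mtrf1, a release factor, by 0.66 log2.

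Of 29 genes for ribosome assembly and ribosomal RNA modification 5 (17.2%) fell and 0 rose, with a median of -0.25 log2, where 9.22% of all genes fell. They were Fastkd2, an RNA-binding assembly factor, by 0.69, Mettl15, a methyltransferase of the small subunit RNA, by 0.61, Mterf4, which acts with the methyltransferase Nsun4, by 0.58, Tfb1m, a dimethyltransferase of the same RNA, by 0.58, and Mtres1 by 0.46 log2. Among 19 mitochondrial aminoacyl-tRNA synthetases, which charge the transfer RNAs, Pars2 (5.26%) fell, by 0.53 log2, and the median was -0.05. Among 19 genes for mitochondrial DNA and its transcription 3 (15.8%) fell: Trmt10c, a subunit of mitochondrial RNase P, by 0.69, Mgme1, a nuclease of mitochondrial DNA, by 0.55, and Ssbp1, which binds single-stranded DNA, by 0.51 log2. Of 12 regulators of mitochondrial biogenesis Gabpb1, a subunit of the ETS factor GABP, fell by 0.60 ± 0.15 log2 (adjusted p = 0.0186). Ppargc1a, a coactivator of nuclear genes for mitochondria, rose by 0.49 ± 0.15 log2 (adjusted p = 0.0384), with 7.398, 7.76 and 7.26 in old HSC, against 6.84, 6.58, 7.22, 7.31 and 6.94 in young HSC. One young array, replicate 4, lay above the lowest old array. In GMP 0 genes of these lists were called with age.

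Cytosolic ribosomes and the respiratory chain were counted beside them. Of 61 measured cytosolic ribosomal protein genes 5 (8.20%) fell in old HSC, near the 9.22% of all genes, with a median of -0.16 log2, and 1 was lower in old HSC than in old GMP. Of 78 genes for subunits of the respiratory complexes 50 (64.1%) fell in old HSC, with a median of -0.58 log2, and 57 were lower in old HSC than in old GMP and 23 in young HSC than in young GMP. Of all genes 13% were lower in old HSC than in old GMP and 10.9% in young HSC than in young GMP. Of the 2502 other genes with levels like those of the 77, 31.0% and 19.3% were. No test of the difference between these lists and the 77 genes was made.

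The stretches just upstream of the 77 genes were searched for 3 motifs of factors known to act at nuclear genes for mitochondria: GCGCATGC for NRF1, CCGGAAG for ETS factors such as GABP, and AAGATGGC for YY1. Both strands of a window of 300 bases, 250 before and 50 after the start of the RefSeq gene, were read, and 68 of the 77 genes had a single entry. The ETS letters end with those that begin the YY1 letters, so hits of both can overlap. The ETS letters were found in 25 of the 68 (36.8%), against 9.93% of all 27025 genes in the table and 13.8% of the tested genes with an entry. The YY1 letters were found in 12 (17.6%), against 3.19% and 3.79%, and the NRF1 letters in 8 (11.8%), against 3.05% and 4.35%. Any of the 3 was found in 37 (54.4%), against 14.9% and 19.99%. The median age difference in HSC was -0.56 log2 with ETS letters and -0.53 without, -0.59 with YY1 letters and -0.53 without, and -0.57 with NRF1 letters and -0.54 without. A match is a description of letters and shows no binding.

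The 150 bases before the start are printed for the 4 largest called decreases in old HSC that had a single entry, Mrps21, Mrpl50, Mrps12 and Mrpl35, to show the sequence upstream of the genes that fell most. Mrpl32 and Mrps26 follow as genes called lower in old HSC that hold a motif within these bases, chosen after the search. Sequences are RefSeq on GRCm38.p6, in the direction of the gene, with motif letters on either strand in capitals. Mrps21 lies at chr3:95871515-95871664 on the minus strand, Mrpl50 at chr4:49521084-49521233 on the minus strand, Mrps12 at chr7:28741822-28741971 on the minus strand and Mrpl35 at chr6:71823785-71823934 on the minus strand. Mrpl32 lies at chr13:14613038-14613187 on the minus strand, with NRF1 letters in capitals, and Mrps26 at chr2:130563607-130563756 on the plus strand, with ETS letters in capitals.
Mrps21: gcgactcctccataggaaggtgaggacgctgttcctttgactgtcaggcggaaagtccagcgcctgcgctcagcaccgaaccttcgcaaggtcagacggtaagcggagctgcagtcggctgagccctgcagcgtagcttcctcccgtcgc
Mrpl50: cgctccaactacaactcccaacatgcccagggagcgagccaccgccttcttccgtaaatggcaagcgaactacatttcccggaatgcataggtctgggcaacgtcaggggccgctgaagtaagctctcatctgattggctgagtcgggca
Mrps12: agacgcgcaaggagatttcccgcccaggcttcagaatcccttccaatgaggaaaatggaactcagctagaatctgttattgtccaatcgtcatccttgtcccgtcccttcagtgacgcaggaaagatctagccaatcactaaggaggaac
Mrpl35: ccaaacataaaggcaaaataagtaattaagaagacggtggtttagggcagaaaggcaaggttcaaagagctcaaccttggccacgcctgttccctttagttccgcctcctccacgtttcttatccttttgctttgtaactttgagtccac
Mrpl32: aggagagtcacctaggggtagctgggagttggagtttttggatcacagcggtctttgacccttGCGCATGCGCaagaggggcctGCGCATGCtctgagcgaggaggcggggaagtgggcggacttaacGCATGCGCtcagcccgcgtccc
Mrps26: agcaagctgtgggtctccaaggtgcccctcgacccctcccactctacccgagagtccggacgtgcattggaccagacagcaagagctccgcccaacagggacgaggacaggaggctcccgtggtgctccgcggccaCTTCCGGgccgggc

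The first 4 stretches hold none of the searched letters within the bases printed, but in the rest of the window searched Mrps21 holds ETS letters, Mrps12 ETS and YY1 letters and Mrpl35 YY1 letters. Of the others, Mrpl32 holds the NRF1 letters in 3 places, 1 of them readable on both strands. Mrpl32 had 7.62, 7.86 and 8.25 in old HSC, against 8.42, 8.999, 8.56, 8.52 and 9.17 in young HSC, with no overlap. Mrps26, a small subunit protein specific to mitochondria, fell by 0.63 log2.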

How the data were processed

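RNA from 15 samples of sorted mouse HSC and GMP was measured on Affymetrix arrays of 1 colour. The deposited table holds log2 expression values for 23309 probe sets with 0 missing values, made by the authors with RMA, per the submitters' processing notes, which name RMA, affy and limma without versions. RMA as commonly run subtracts background, makes the arrays' distributions alike and summarises probes, so levels are relative to the array. In the deposited values the spread still differed, with interquartile ranges from 1.96 (old HSC replicate 2) to 2.69 log2 (young HSC replicate 1). The log2 scale was read from the values. A genome build and filters are not given in the sources used here.

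Groups came from the labels. Of the probe sets 20728 had 1 symbol, 1174 several and 1407 none, and those with 1 symbol gave 19296 genes by the brightest probe set. A probe set with several symbols that named a gene of the family was left out, as was any gene of the family with no single-symbol probe set, and these were not analysed here. limma 3.58.1 in R 4.3.3 fitted a mean per group over all 15 arrays, with eBayes moderation and Benjamini-Hochberg adjustment over all genes (threshold 0.05), and the code was tested on simulated data. Differences are old minus young, HSC minus GMP, and the HSC age effect minus the GMP age effect. The genes described, the lists, subunit classes and markers were chosen with earlier results of these data known. Genes were named by rule: the largest called changes of each comparison (12 for age in HSC, 10 for HSC against GMP in young mice, 6 in old mice), the 4 smallest p-values where none was called, and a fixed set of Mrps18a, Mrps18b, Mrps18c, Mrps30, Mrps36 and Mrpl12. Mrpl10, Mrps27, Mrpl28, Mrpl52 in old mice, Mrps26 and Mtres1 were named after their values were seen.

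Replicate numbers of young HSC and young GMP were considered as a possible pairing, although the labels name none. The fit of a mean per group did not pair arrays, and the replicate block was an alternative. The deviations of same-numbered arrays from their group means correlated at 0.287, 0.235, 0.161 and 0.525. The highest, 0.525, was between both arrays numbered 4, and young HSC replicate 2 matched young GMP replicate 1 best. In the other comparisons at least 1 pair was under 0.1. Alternatives were quantile normalization, the mean of probe sets, a filter on dim genes, the replicate block, a fit on the compared groups, the interquartile range as a covariate, limma-trend with a robust prior, both arrays numbered 4 left out, arrays with high Xist left out, and each array left out in turn.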

Additional observations from a re-analysis of the deposited data

Results flagged for a closer look

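Gaps between 1 array and the rest of its group were looked for in 30 genes in the groups of 4 and 5 arrays, 60 tests in all, of which chance flags about 1 in 20. The genes share arrays and varied together, so the tests are not independent and 1 low array can flag many genes. There were 10 such gaps, and every one came from an array numbered 4, the arrays with low Y-linked genes and the lowest spread of their groups, whose part in these values was not tested. In young HSC replicate 4, Mrps21 lay at 9.86 (nearest array 10.81), Mrps36 at 8.29 (8.84) and Mrpl47 at 6.64 (7.52). In young GMP replicate 4, Mrpl20 lay at 7.98 (nearest array 8.66), Mrpl11 at 9.96 (10.27), Mrpl14 at 8.69 (9.23), Mrpl36 at 8.40 (9.28), Mrpl51 at 10.91 (11.57), Mrpl19 at 8.92 (9.37) and Mrps18c at 11.48 (12.20). All 10 were below the rest of their group.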

How the results depend on the processing

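Of 68 differences given for single genes, 51 were called. The 51 kept their direction under all alternatives run, and 42 lost the call under at least 1, while 9 of the others gained one. A different sign was seen for 7, none of them called: Mrps18b, Mrps36, Mrpl12, Mrpl28 and Mrpl52 for age in HSC, and Mrpl13 and Mrps18a for age in GMP. Counts of the 77 genes moved more. For age in HSC, 37 were lower, against 20 after quantile normalization and 20 in the fit on the compared groups. The count was 0 with the interquartile range as a covariate and 70 without both arrays numbered 4. Without the young arrays with high Xist 1 young HSC array was left, and the median difference was -0.46 log2. The replicate block gave 61, with 19.2% of all genes lower, although the numbers do not pair old with young arrays. Leaving out 1 array gave 3 to 65, with 1.44% to 17.9% of all genes. Of all genes 9.22% were lower where 37 of the 77 were, and 4.03% after quantile normalization. The share was 4.06% in the fit on the compared groups and 0.264% with the interquartile range as a covariate. For age in GMP the count of 0 lower became 8 with the replicate block (1.05% of all genes) and 6 without both arrays numbered 4 (0.876%). For the difference between both age effects it became 1 with the replicate block, and leaving out 1 array gave 0 to 1, with 1 without young HSC replicate 4. For HSC against GMP in young mice, 24 were lower, against 39 with the replicate block, 52 with the interquartile range as a covariate and 8 without the arrays with high Xist, which also ended the call of Mrpl52 (0 higher), and 10 to 35 with 1 array left out. In old mice 53 were lower (13% of all genes), 35 to 57 with 1 array left out (9.53% to 13.5%). There 0 were higher, against 1 with the replicate block, in the fit on the compared groups, with the interquartile range as a covariate, without both arrays numbered 4 and without the arrays with high Xist. The cause of these moves was not tested, except that leaving out arrays leaves fewer samples. The replicate block moved no other count by over 1.5 times. Where 1 HSC or GMP array was left in a young group, its spread was taken from the other groups.

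Precision was limited by 3 to 5 arrays a group, and a difference that was not called is not shown to be absent.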
